A study of Mus musculus with 4 samples.

Results

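The genes of the linker histone H1 and of the core histones H2A, H2B, H3 and H4 were read from 70 of the 25697 probes on Illumina bead arrays of mouse E14 embryonic stem (ES) cells. The probes were taken by the symbol given for them in the deposited table (a start of Hist1h to Hist4h, H2af, H3f3 or H1f, without the non-coding RNA gene H19) and stand for 63 of the 18120 gene symbols in it. Of these probes, 60 belong to 55 genes of the histone clusters and 10 to 8 variant genes that lie outside the clusters. By family, the cluster probes number 6 for H1, 15 for H2A, 16 for H2B, 12 for H3 and 11 for H4, and the variant probes 3 for H1, 4 for H2A and 3 for H3. The members were chosen by gene name and not by a cut on measured values, but with earlier results of these arrays known, among them high values of a cluster H1 gene and a cluster H2B gene in undifferentiated knockdown cells. Values of the knockdown contrasts are therefore given as a description, with no support drawn from them.

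There were 4 groups of 1 array each: undifferentiated cells with a scramble shRNA, undifferentiated cells with an shRNA against AKAP95 (the nuclear A-kinase anchor protein encoded by Akap8), and both populations after retinoic acid (RA). All cells carried a stably integrated virus that expressed the shRNA, and undifferentiated cells grew on gelatin with LIF, the cytokine that holds ES cells in their undifferentiated state. RA cells had been kept for 4 days without LIF and for 4 more days in 1 µM all-trans RA as a monolayer, so what is called the RA effect mixes RA, the loss of LIF and time. The labels do not say whether the cells of a population came from 1 clone or from a pool, and with 1 array a group there is no spread between replicates to set a pairwise difference against.

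Cluster histone genes are called replication-dependent: they lack introns, are transcribed in S phase, and their mRNA ends in a stem-loop bound by SLBP and cut with the help of the U7 snRNP, in place of a poly(A) tail. Some of them also give polyadenylated transcripts, for example in cells that leave the cycle. Variant genes such as those of H3.3, H2A.Z and macroH2A have introns and poly(A) tails and are expressed through the cell cycle. The labelling kit named in the labels primes cDNA with oligo(dT), so that the signals of cluster genes may come from a part of their transcripts. Cluster genes of one family are also close to identical in coding sequence, and how many of them each probe reads was not tested, because the probe sequences were not used here.

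The promoter of a gene that carries a main result is shown for each family, since the families differ in promoter letters. The H1 gene is the one that was higher in knockdown cells, and the H2A, H2B, H3 and H4 genes are among those with the largest fall after RA in their family. The 250 bases before the start are given 5′ to 3′ in the gene's direction, from RefSeq with build GRCm38.p6. Capitals mark matches, on either strand, to any of 5 motifs: the octamer ATTTGCAT, the H1 box AAACACA, the CCAAT box, the TATA box TATAAA and the H4 element GGTCCG. No motif contains another.
H1f2, chr13:23738557-23738806, plus strand: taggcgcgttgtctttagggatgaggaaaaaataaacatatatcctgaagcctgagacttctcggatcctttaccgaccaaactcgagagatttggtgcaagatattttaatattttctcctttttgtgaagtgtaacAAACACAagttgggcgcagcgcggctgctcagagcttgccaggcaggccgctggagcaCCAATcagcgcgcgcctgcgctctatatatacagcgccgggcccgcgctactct
H2ac4, chr13:23750838-23751087, plus strand: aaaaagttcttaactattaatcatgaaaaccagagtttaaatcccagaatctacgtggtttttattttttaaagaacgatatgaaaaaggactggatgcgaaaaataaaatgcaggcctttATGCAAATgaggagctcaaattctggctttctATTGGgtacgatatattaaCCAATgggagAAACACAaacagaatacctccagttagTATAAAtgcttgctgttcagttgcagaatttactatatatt
H2bc12, chr13:22035571-22035820, plus strand: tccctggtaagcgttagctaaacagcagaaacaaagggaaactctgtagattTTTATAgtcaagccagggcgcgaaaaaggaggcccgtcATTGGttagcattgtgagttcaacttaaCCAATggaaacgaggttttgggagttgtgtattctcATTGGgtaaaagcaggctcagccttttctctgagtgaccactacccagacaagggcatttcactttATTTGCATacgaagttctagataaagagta
H3c3, chr13:23745522-23745771, minus strand: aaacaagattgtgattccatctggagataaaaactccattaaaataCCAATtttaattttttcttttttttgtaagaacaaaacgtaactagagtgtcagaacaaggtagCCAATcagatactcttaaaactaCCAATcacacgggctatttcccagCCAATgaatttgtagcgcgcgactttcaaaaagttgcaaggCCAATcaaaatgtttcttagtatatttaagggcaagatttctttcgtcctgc
H4c9, chr13:22041363-22041612, minus strand: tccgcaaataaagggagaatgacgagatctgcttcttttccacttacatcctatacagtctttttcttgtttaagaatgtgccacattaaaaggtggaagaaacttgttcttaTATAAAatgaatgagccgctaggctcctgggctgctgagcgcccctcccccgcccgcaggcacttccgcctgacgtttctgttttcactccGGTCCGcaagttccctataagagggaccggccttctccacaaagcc
In file symbols these are Hist1h1c, Hist1h2ab, Hist1h2bk, Hist1h3c and Hist1h4i. A promoter was listed for 57 of the 63 genes, and not for H2ax, H2bc4, H2bu1-ps, H3c1, H3c7 and H4c14. The octamer stood in 7 of 12 cluster H2B promoters (58.3%) and in 7 of 15 cluster H2A promoters (46.7%), against 1.81% of the promoters of all 27025 genes listed. It stood in none of the cluster H1, H3 and H4 promoters. The H1 box stood in 5 of 6 cluster H1 promoters (83.3%, against 7.2% of all), and the H4 element in 8 of 10 cluster H4 promoters (80.0%, against 7.69% of all). CCAAT stood in every cluster H1, H2A and H2B promoter listed, in 6 of 7 of H3 and in 2 of 10 of H4, against 37.5% of all. TATAAA stood in 25 of 50 cluster promoters, against 14.3% of all. These matches describe letters in this window and show no binding.

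Between 11344 and 12156 of all probes were detected per array (detection p under 0.01), and the median signal lay between 75.1 and 82.8. The Akap8 probe had a signal of 272 in undifferentiated scramble cells and of 139 in undifferentiated knockdown cells, and of 297 and 199.7 in the same order after RA. On the normalized log2 scale it was lower by 1.18 in undifferentiated knockdown cells and by 0.77 after RA, which is the direction of the labels. All 8 pluripotency markers were detected on both undifferentiated arrays, and all 8 fell with RA in the additive limma fit described below. Their summed signal was 39657 and 37000.0 before RA and 1623 and 3468 after it (scramble first). Tdgf1 was detected on the undifferentiated arrays alone and passed the filter only through them, so its call is no separate support.

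Detection on 1 array or more was seen for 55 of the 70 histone probes, and on all 4 for 41. The 15 that were detected on none include 3 genes known from testis, Hist1h1t, Hist1h2aa and Hist1h2ba, and the probes of the linker genes Hist1h1d and Hist1h1e. A probe was compared between 2 arrays if detected on either of them, so the probes compared are not all members. A dim side was raised to the lowest detected value of its array, and the difference is then written as "at least". Signals below are scanner values before normalization, given in the order undifferentiated scramble, undifferentiated knockdown, RA scramble and RA knockdown. Log2 differences are taken after background correction and quantile normalization, so they can exceed the ratio of the signals.

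**Figure D1:**
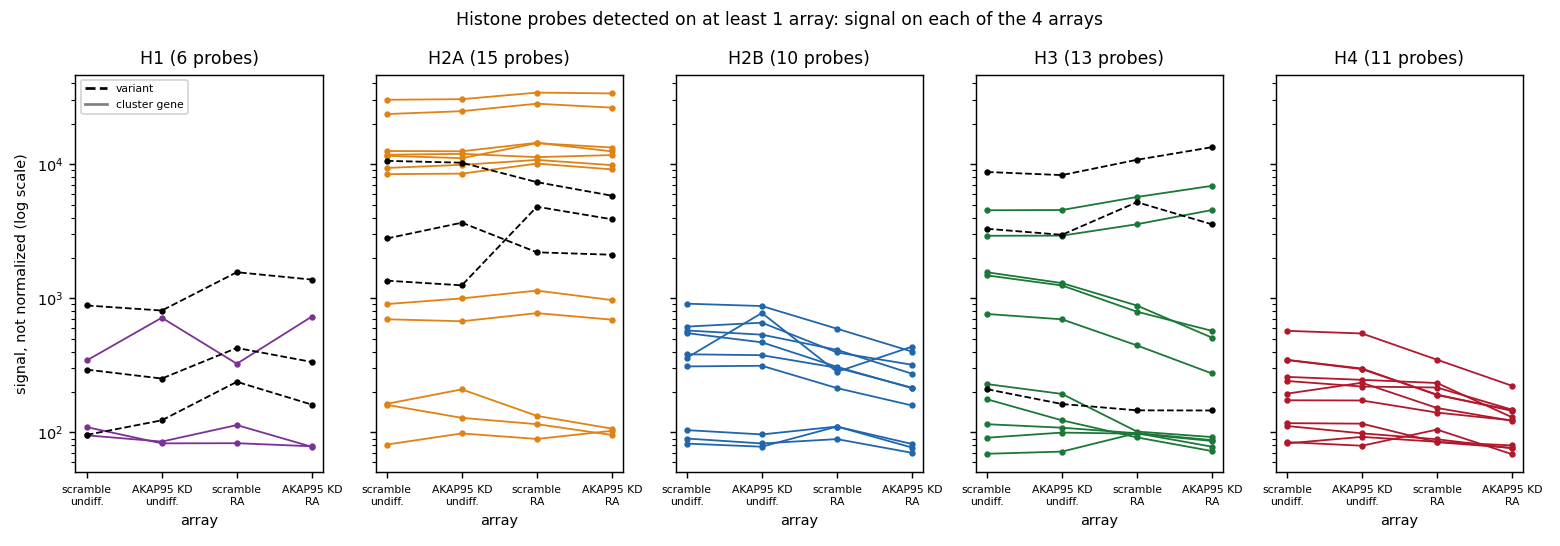
Signal of each histone probe detected on at least 1 array (log axis, scanner units before normalization) on the 4 arrays, by family; each line is 1 probe, solid for cluster genes and dashed for variants. Most cluster H2B, H3 and H4 lines step down after RA, the bright cluster H2A lines run flat, and H2afy, the dashed H2A line from 1353 to 4815, steps up.

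After RA, 21 of the 31 detected cluster probes of H2B, H3 and H4 fell, as did 2 of 12 of cluster H2A, and the variant H2afy, which encodes macroH2A1, rose. An additive limma fit over all 4 arrays, with terms for RA and shRNA and 1 residual degree of freedom pooled over probes, was used as the test, with Benjamini-Hochberg adjustment over all 13343 probes detected on at least 1 array. That residual holds noise together with any difference of RA effects between the 2 populations. The SEs and adjusted p-values of the fit therefore do not measure a spread between replicates. Over all probes, 18.8% rose and 18.5% fell, together 37.2%. Among the 55 histone probes, 1 rose and 24 fell, with a median of -0.60 on the log2 scale beside -0.02 over all probes. Of the 46 cluster probes, 23 fell and none rose, while 1 of the 9 variant probes rose and 1 fell. The probes that fell include Hist1h4b and Hist1h4c, which passed the filter only through the undifferentiated arrays, and the near-identical profiles of Hist1h4i and Hist1h4j. A fit of only the probes detected on all 4 arrays leaves out the first pair but not the second. There 21 of 41 histone probes fell and 2 rose, beside 2172 and 1919 of 10058 probes. In these bulk cultures, fewer cells that express a gene and less RNA per cell cannot be told apart.

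Pairs of arrays were also compared within each population. In scramble cells 13 of 53 histone probes were at least 2-fold lower after RA and 2 were at least 2-fold higher, where 11.9% and 12.9% of all probes were (24.8% in either direction). In knockdown cells 22 of 50 were at least 2-fold lower and 1 higher, where 10.3% and 11.0% of all probes were (21.3% in either direction). The median difference was -0.43 in scramble cells and -0.76 in knockdown cells, beside -0.06 and -0.07 over all probes. These medians were -0.30 and -0.36 with the deposited median-normalized ratios, and -0.39 and -0.47 without background correction. With the deposited ratios the count of lower histone probes in scramble cells went from 13 to 4, and the share of higher among those past 2-fold from 13.3% to 33.3%. Over the 48 probes compared in both populations, whose 2 RA effects share no array but were normalized together, Pearson's r was 0.885 and Spearman's rho 0.877; over all 12292 probes r was 0.879. This correlation is across probes, some of which may read the same transcripts.

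**Figure D2:**
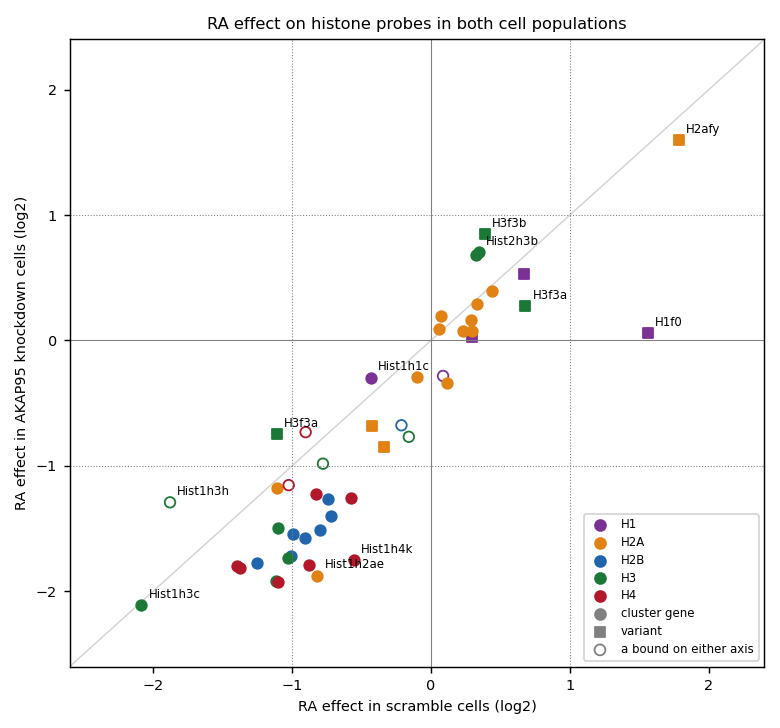
RA effect (log2 difference, RA less undifferentiated) of each histone probe in scramble cells (x axis) and in AKAP95 knockdown cells (y axis); colours give the family, squares are variants, open symbols hold a bound, and dotted lines mark 2-fold. Cluster H2B, H3 and H4 probes fill the lower left, mostly below the diagonal of equal effects, and the bright H2A probes lie near 0. H2afy is the only probe at least 2-fold higher on both axes, with other probes above 0 on both by less.

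The linker histone genes, whose proteins bind the DNA that enters and leaves the nucleosome, gave few calls for RA. Of the 6 cluster H1 probes 3 were detected on any array, and none of these passed the fit. Hist1h1c (now H1f2, the H1.2 protein) had signals of 344, 716, 325 and 731. The 2 knockdown arrays were high and the 2 scramble arrays low at either state, and its RA difference was -0.43 in scramble and -0.30 in knockdown cells (fit -0.36, adjusted p = 0.162). Hist1h1a (now H1f1) was detected on the undifferentiated scramble array alone, with a signal of 109.5. Hist1h1b (now H1f5, a linker histone of dividing cells) lay close to the detection limit, at 95.1, 85.4, 113 and 78.1.

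The variant linker genes had higher signals after RA. H1f0, the replacement linker histone known to accumulate in differentiated cells, had signals of 95.9, 123, 238 and 161. It was 1.56 higher on the log2 scale after RA in scramble cells and 0.06 higher in knockdown cells, and the fit over both populations did not pass (0.81, SE 0.40, adjusted p = 0.181). H1fx (now H1f10) was read by 2 probes, at 884, 810, 1564 and 1378 for the brighter and at 294, 252, 426 and 335 for the other. Both were higher after RA in both populations, by 0.67 and 0.53 for the brighter probe, with a fit of 0.60 (adjusted p = 0.0578), and by 0.29 and 0.03 for the other, with a fit of 0.16 (adjusted p = 0.510).

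Cluster H2A genes split by signal. Of 12 detected probes, 2 fell and none rose in the fit. The 9 probes with a signal above 500 on every array, a limit chosen after the values were seen, ranged from 674 to 34149, and their RA differences lay between -0.10 and 0.44 in scramble cells and between -0.34 and 0.39 in knockdown cells. Hist1h2ao, the brightest by its mean, had signals of 30203, 30512, 34149 and 33673, which are close to one another on all 4 arrays. Its RA differences of 0.07 and 0.19 became -0.02 and -0.12 with median scaling. Among all 3361 probes above the same limit, 215 were at least 2-fold higher and 226 lower in scramble cells. Only 4 cluster H2B, H3 and H4 probes were above it, all of them H3. Hist1h3d and Hist1h3e were at least 2-fold lower after RA in both populations. Hist2h3b and 1 Hist2h3c1 probe were higher in both, so the medians of the 4, -0.35 and -0.41, describe neither pair. The limit holds on the RA arrays too, so it leaves out probes that fell below it. Hist1h2bf (912, 875, 593 and 401) and Hist1h3a (764, 697, 445 and 275) were left out this way. The set above the limit is therefore partly fixed by the RA values, and families cannot be compared in it at equal signal. Whether the brightest probes were near the top of the scanner's range was not tested.

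The other 3 detected cluster H2A probes, with signals of at most 209, did not all behave alike. Hist2h2aa1 had signals of 81.2, 98.2, 89.4 and 102.8 and was detected on the 2 knockdown arrays alone. It did not pass the fit (-0.19, adjusted p = 0.453), and its RA difference in knockdown cells was -0.35. Hist1h2ab (now H2ac4) had signals of 161, 128, 115 and 95.7, with both RA arrays below both undifferentiated arrays. It fell by 1.14 on the log2 scale (SE 0.17, adjusted p = 0.0149). Hist1h2ae (now H2ac8) had signals of 163, 209, 133 and 107 and also fell, with a fit of -1.35 (SE 0.31, adjusted p = 0.0352). Its RA difference was -0.82 in scramble and -1.88 in knockdown cells.

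For H2B, 7 of 10 detected cluster probes fell and none rose. The median RA difference was -0.77 in scramble cells over 10 probes and -1.53 in knockdown cells over 8. Hist1h2bf (now H2bc7), the brightest by its mean, had signals of 912, 875, 593 and 401. Its 2 RA arrays were below its 2 undifferentiated arrays, and the knockdown RA array was lowest, with RA differences of -0.91 and -1.58 and a fit of -1.24 (adjusted p = 0.0234). Hist1h2bk (now H2bc12) had signals of 550, 469, 308 and 214 and the largest fit of the family, -1.52 (SE 0.21, adjusted p = 0.0135). Its 4 arrays stood in the same order as those of Hist1h2bf.

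Hist1h2bh, Hist1h2bj, Hist1h2bm and Hist1h2bn repeated that order in their RA arrays: RA differences were between -0.72 and -1.01 in scramble and between -1.40 and -1.72 in knockdown cells, and all of them fell (adjusted p between 0.0194 and 0.0333). Hist1h2bc (now H2bc4) fell from a different start. Its signals were 360, 777, 283 and 436, so that the undifferentiated knockdown array was high and the RA arrays were each below the undifferentiated array of their own population, by 0.74 in scramble and 1.26 in knockdown cells on the log2 scale (adjusted p = 0.0294). A second Hist1h2bc probe was detected on no array, at 52.9 to 60.7. Hist2h2bb, outside the large cluster, stayed near the detection limit on both of its probes, at 77.2 to 110.6.

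H3 held the largest fall of the whole set. Hist1h3c (now H3c3) had signals of 229, 194, 102 and 92.3 and fell by 2.10 on the log2 scale (SE 0.17, adjusted p = 0.00676). Its RA differences, -2.08 in scramble and -2.11 in knockdown cells, were nearly equal, unlike those of most H2B and H4 probes. Both RA signals were close to the highest signals of undetected histone probes on those arrays, 89.4 and 87.6. The size of this fall was thus measured near the detection limit, and whether that limit made the 2 values alike was not tested. Hist1h3h (now H3c10) had signals of 177, 123, 91.7 and 72.6 and was not detected on the last array. Its RA difference was -1.88 in scramble cells and at least -1.29 in size in knockdown cells, with a fit of -1.83 (adjusted p = 0.00793).

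The 3 brighter Hist1h3 probes gave smaller falls, with the knockdown RA array lowest in each. Hist1h3e (now H3c6) had signals of 1563, 1298, 882 and 509, Hist1h3d (now H3c4) of 1481, 1246, 794 and 571, and Hist1h3a (now H3c1) of 764, 697, 445 and 275. Their fits were -1.38, -1.30 and -1.52 in the same order (adjusted p 0.0200, 0.0150 and 0.0194). Hist1h3g (now H3c8) fell too, with a fit of -1.03 (adjusted p = 0.0271) at signals of 115, 108, 98.6 and 78.3. In all, 6 of 10 detected cluster H3 probes fell.

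The remaining bright cluster H3 probes were not lower after RA, and their profiles were close to that of a variant. Hist2h3b (now H3c13) had signals of 4532, 4551, 5692 and 6894, and the brighter of 2 Hist2h3c1 probes had 2926, 2931, 3565 and 4551. Both were higher after RA, by 0.35 and 0.32 in scramble and by 0.70 and 0.68 in knockdown cells, without passing the fit (adjusted p 0.0954 and 0.105). After each probe was centred on its own mean of 4 arrays, the 2 probes were never more than 0.015 apart on the log2 scale. H3f3b, which encodes the replacement histone H3.3, was within 0.095 of the first and 0.110 of the second, with signals of 8744, 8287, 10781 and 13383. Whether these probes read one another's transcripts was not tested. The other Hist2h3c1 probe was dim, at 86.3 to 99.7, with RA differences of -0.16 in scramble cells and at least -0.77 in size in knockdown cells.

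For H4, which pairs with H3 in the nucleosome core, 8 of 11 detected probes fell, none rose, and the fitted value of all 11 was below 0. Hist1h4f (now H4c6), the brightest by its mean, had signals of 572, 547, 348 and 223. The undifferentiated arrays were close together, the scramble RA array was lower and the knockdown RA array lowest, with a fit of -1.51 (SE 0.26, adjusted p = 0.0199). Hist1h4i (now H4c9) had signals of 347, 296, 191 and 145, and Hist1h4j (now H4c11) had 347, 299, 190 and 146. These probes differed by at most 0.022 on the centred log2 scale, had fits of -1.594 and -1.598 (adjusted p 0.0117 and 0.0114), and cannot be counted as 2 separate observations.

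Hist1h4h had signals of 195, 235, 152 and 122, and Hist1h4d had 174, 173, 141 and 123. Both fell, with fits of -1.33 and -1.03 (adjusted p 0.0288 and 0.0235). Hist1h4m fell as well, with a fit of -0.92 (adjusted p = 0.0459). Hist1h4b and Hist1h4c were detected on the undifferentiated arrays alone and gave fits of -1.38 and -1.04 (adjusted p 0.0122 and 0.0179). Having passed the filter only through the arrays where they were high, they are no separate support. Hist1h4k (now H4c12) had signals of 259, 247, 234 and 130: 3 arrays were close together and the knockdown RA array was low, and it did not pass the fit (-1.15, SE 0.34, adjusted p = 0.0605).

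Among the core histone variants the RA values went different ways. H2afy (now Macroh2a1), whose macroH2A protein carries a large additional domain and is known from silent chromatin, had signals of 1353, 1249, 4815 and 3882. Both RA arrays were far above both undifferentiated arrays, and it rose by 1.69 (SE 0.17, adjusted p = 0.00881), with RA differences of 1.784 and 1.595. H2afz, the gene of H2A.Z, which is placed at promoters by remodelling complexes, had signals of 10580, 10255, 7343 and 5818 and a fit of -0.55 (adjusted p = 0.0767). H2afx, the gene of H2A.X, which is phosphorylated at DNA breaks, had signals of 2791, 3661, 2202 and 2112 and a fit of -0.60 (adjusted p = 0.0905). The H2afj probe was detected on no array.

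H3f3a, the other gene of H3.3, was read by probes that disagreed. The brighter had signals of 3298, 2974, 5207 and 3558, with RA differences of 0.68 and 0.28 and a fit of 0.48 (adjusted p = 0.123). The dimmer had 210.0, 163, 146 and 146 and fell, with a fit of -0.93 (SE 0.19, adjusted p = 0.0275). No direction is therefore given for the gene. H3f3b did not pass (fit 0.62, adjusted p = 0.0774), and its knockdown RA array was the highest of the 4.

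**Figure D3:**
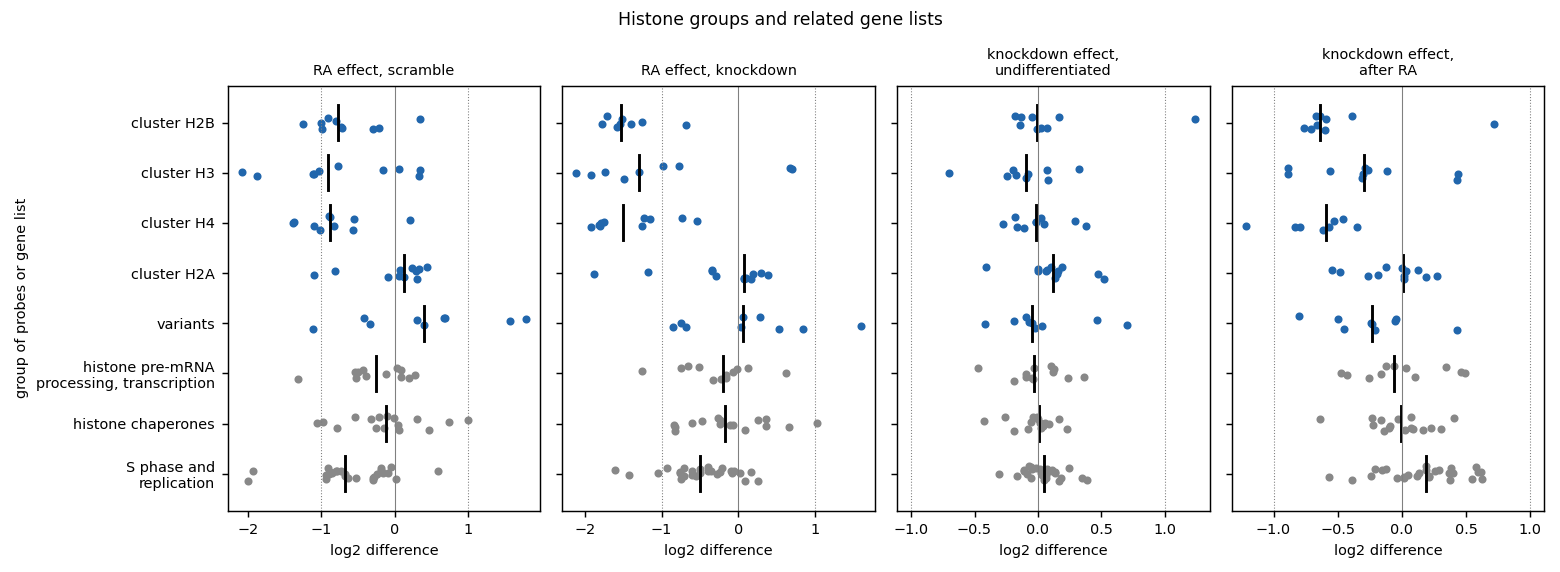
Log2 differences in the 4 pairwise comparisons (panels) for cluster histone probes by family, for variants and for lists of related genes; each point is 1 probe, black bars are medians and dotted lines mark 2-fold. After RA the cluster H2B, H3 and H4 medians lie left of 0 in both populations, and in the last panel, knockdown less scramble after RA, the H2B and H4 medians are -0.64 and -0.59 while that of the S phase list is 0.19.

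Genes that act with histones were read from lists. For histone pre-mRNA processing and histone gene transcription, 12 of 15 genes on the array were detected, of which 2 fell and none rose, beside 18.5% and 18.8% of all probes, so the share that fell is near the background. Zfp473, a zinc finger protein of the processing machinery, fell by 1.29 on the log2 scale (adjusted p = 0.0122), and Hinfp, a factor known to bind H4 promoters, had a fit of -0.81 (adjusted p = 0.0439). The Hinfp probe was detected on the undifferentiated arrays alone and passed the filter only through them, so its call is no separate support. The probes of Slbp, Casp8ap2 and Lsm11 were detected on no array. Of 16 detected histone chaperone genes, 2 rose and 3 fell, shares that are again near those of all probes, so the genes below are given as values and not as a result about chaperones. Asf1a and Asf1b, paired chaperones of H3 and H4, went opposite ways, with fits of 1.01 (adjusted p = 0.0184) and -0.95 (adjusted p = 0.0232). Nasp, which holds soluble H3 and H4, and Daxx, which deposits H3.3, fell by 0.81 (adjusted p = 0.0286) and by 0.91 (adjusted p = 0.0236).

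Of 27 detected S phase and replication genes, 10 fell and none rose, beside 18.5% and 18.8% of all probes. Ccne1, the cyclin of S phase entry, fell by 1.76 (adjusted p = 0.00913), and Orc1, of the origin recognition complex, by 1.71 (adjusted p = 0.0119). Mcm3, of the replicative helicase, and Rrm2, of ribonucleotide reductase, fell by 0.93 (adjusted p = 0.0215) and by 0.86 (adjusted p = 0.0330). The median RA difference of the list was -0.67 in scramble and -0.50 in knockdown cells. For the 30 and 27 cluster H2B, H3 and H4 probes it was -0.85 and -1.49. Of 4 histone genes on the array that the symbols left out, Cenpa, the gene of the centromeric H3 variant, was the 1 detected, with a fit of 0.04.

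Markers of other cell types moved with RA as well, and their part in the histone values was not tested. The summed signal of the endoderm list was 1015 and 892 before RA and 3588 and 2044 after it (scramble first). For the neural list it was 2490 and 2881, then 3378 and 1360. For the trophoblast list it was 3767 and 4458, then 7919 and 13401, and for the germ cell list 1796 and 1704, then 1556 and 7498. For the mesoderm and fibroblast list it was 1465 and 1444, then 3103 and 2106. On the RA arrays 6 and 5 of 8 endoderm, 5 and 5 of 7 neural, 5 and 8 of 9 trophoblast, 4 and 5 of 6 germ cell and 4 and 4 of 8 mesoderm and fibroblast markers were detected. Afp, Ttr, Pax6, T, Kdr, Col1a2 and Sycp3 were detected on no array.

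In undifferentiated cells the knockdown array differed little from the scramble array in histone probes. Of 52 compared, 2 were at least 2-fold higher and none lower, where 0.068% of all probes were higher (8 of 11765) and 0.102% lower (12), 0.17% in either direction. Since the set was proposed with these values known, nothing is read from that count. Both genes lie in the large cluster of chromosome 13, and both were named above: Hist1h2bc was 2.37-fold and Hist1h1c 2.31-fold higher in knockdown cells. They were also past 2-fold under every other setting that was tried in which they were measured. The median over the 28 cluster H2B, H3 and H4 probes compared was -0.03.

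In the order of genes along chromosome 13, Hist1h2bc and Hist1h1c are separated by 2 histone genes, Hist1h1t and Hist1h4c. Hist1h1t was not detected, and Hist1h4c was -0.27. On the outer side of Hist1h1c, Hist1h3c was -0.24 and Hist1h2bb at least -0.14 in size. On the outer side of Hist1h2bc, the probes of Hist1h1e and Hist1h2ac were detected on no array. Neighbouring genes that were measured thus did not share the higher value.

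**Figure D4:**
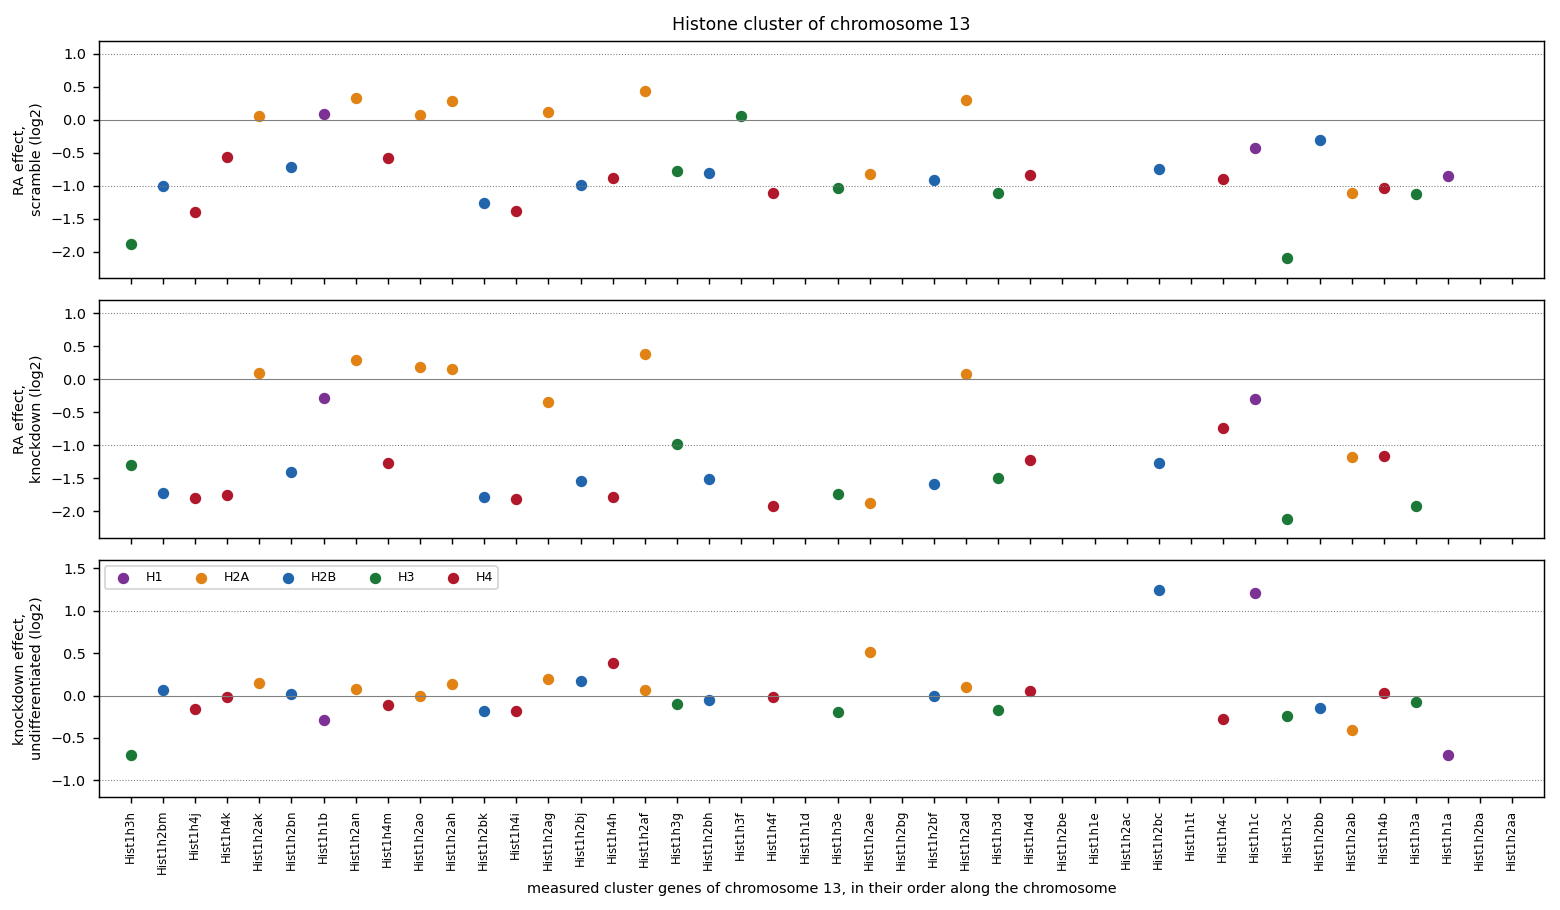
RA effect in scramble and in knockdown cells and knockdown effect in undifferentiated cells (log2 differences, bounds included) of cluster histone probes on chromosome 13, in gene order along the chromosome and not to scale; colours give the family, dotted lines mark 2-fold, and a gene without a point was not compared. Orange H2A points alternate with lower H2B, H3 and H4 points along the cluster, and in the bottom panel Hist1h2bc and Hist1h1c stand at 1.24 and 1.21.

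After RA, Hist1h1c was again higher in knockdown cells, by 1.34 on the log2 scale (2.53-fold), and Hist1h2bc by 0.72. Hist1h4k was lower by 1.22. These 2 probes past 2-fold, 1 higher and 1 lower of 50, stand beside 2.73% and 2.8% of all probes (5.54% in either direction). With the deposited ratios, an offset of 50 or no background correction, Hist1h4k was no longer past 2-fold. Most histone probes lay below 0: 38 of 50 were lower in knockdown cells, beside 6402 of 12627 of all probes. The medians were -0.33 and -0.01. Of the cluster H2B, H3 and H4 probes 24 of 27 were lower, with a median of -0.57. Without the values that are bounds, the 2 histone counts were 30 of 41 and 17 of 20. The exceptions among those 27 were Hist1h2bc, Hist2h3b and the brighter Hist2h3c1 probe. The 27 S phase genes compared had a median of 0.19 and none past 2-fold. Among the marker lists, 5 of 8 trophoblast, 4 of 5 germ cell and 4 of 7 pluripotency markers compared were at least 2-fold higher in the knockdown RA array. At least 2-fold lower were 4 of 5 neural and 2 of 6 endoderm markers. Of 4 mesoderm and fibroblast markers 1 was higher and 2 were lower. The part of all these markers in the histone values was not tested.

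**Figure D5:**
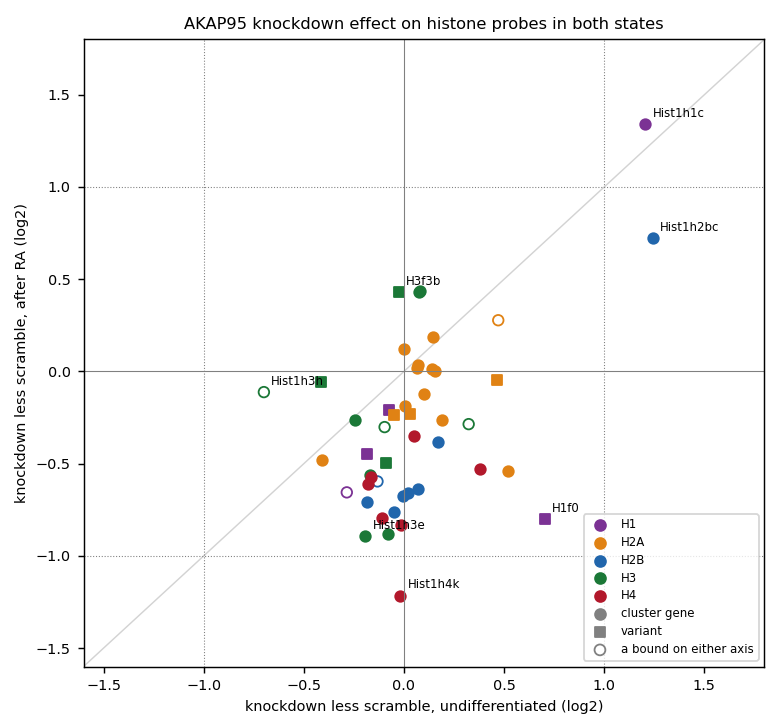
Knockdown effect (log2 difference, AKAP95 knockdown less scramble) of each histone probe in undifferentiated cells (x axis) and after RA (y axis); colours give the family, squares are variants, open symbols hold a bound, and dotted lines mark 2-fold. Hist1h1c and Hist1h2bc stand apart at the upper right, and most cluster H2B, H3 and H4 probes lie near 0 on the x axis and between 0 and -1 on the y axis.

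The 2 knockdown effects share no array. Across the 47 histone probes compared in both states Pearson's r was 0.494 and Spearman's rho 0.410, beside 0.150 and 0.140 over 11049 probes of all kinds. These values describe probes on 4 arrays normalized together. The 47 include Hist1h1c and Hist1h2bc, whose high values were known when the set was proposed, and no coefficient was computed without them. The additive limma fit called no probe for knockdown at an adjusted p under 0.05, among all probes or among the histone probes, with a smallest adjusted p of 0.831. Without adjustment, 239 probes were higher and 331 lower at p under 0.05, of which 2 and 1 were histone probes. With an intensity trend in the prior variance the fit also called none.

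The RA differences of the 2 populations were set against each other for 48 histone probes. In 39 the value in knockdown cells was below that in scramble cells, beside 6248 of 12292 of all probes. The median of the difference was -0.38 beside -0.01 over all probes. Of the 48 differences 7 rest on bounds. Those of Hist1h1b, Hist1h3g, Hist2h2bb and the dim Hist2h3c1 probe are below 0 and bounded on the knockdown RA array alone, so they could only be lower. For Hist1h3h, Hist1h4b and Hist1h4c the bounds leave no certain sign. Without all 7, 34 of 41 were below 0. The median was -0.20 with the deposited ratios and -0.22 without background correction. A difference of at least 2-fold was found for 3 probes in the lower direction and none in the higher, where 2.7% and 2.86% of all probes were found (5.56% in either direction). These were H1f0 (-1.503), Hist1h4k (-1.198) and Hist1h2ae (-1.059). H1f0 had the higher undifferentiated value in knockdown cells and the higher RA value in scramble cells, whereas Hist1h4k differed on the RA arrays alone. Without background correction or with the deposited ratios none of the 3 was past 2-fold. With all 4 arrays used, this difference leaves no residual and was not tested. The knockdown effect after RA and the RA effect in knockdown cells use the same knockdown RA array as this difference. The lower values in all of them are therefore not separate observations.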

How the data were processed

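Total RNA of the 4 groups was labelled as biotin cRNA and put on 1 Illumina bead array each. Per the file headers, the deposited intensity is an average bead signal per probe without normalization, and the deposited p-value is the scanner software's detection p; background subtraction and software version are not given in the sources used here. The authors also deposited a ratio, the intensity over the median of its array, which was used as an alternative. Depth has no counterpart here, and the number of arrays limits the precision.

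The intensities were background-corrected and quantile-normalized after the scheme of neqc in limma 3.58.1 (R 4.3.3; negative controls inferred from the detection p-values, offset 16, log2). Each probe was 1 feature. Symbols were matched to RefSeq (GRCm38.p6): 68 of the 70 histone probes matched by accession, and 66 have another current symbol. Of all probes 92.9% matched by accession. Pairs of arrays were compared at 2-fold without a test. The additive limma fit used lmFit and eBayes with a threshold of 0.05. It was also run on simulated arrays with few changed probes and equal RA effects in both populations. Since these data differ in both respects, that run checks the code and not the error rate of the fit here. Python 3.11.15, pandas 2.3.3, numpy 2.4.6, scipy 1.17.1 and matplotlib 3.10.9 served the other steps.

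The genes named are the histone probes past 2-fold in any pair or passing the fit for RA, every detected variant, the brightest cluster probe of each family with other probes of the same gene, Akap8, and from each list of related genes the 4 with the largest fitted change. Hist1h1a, Hist1h1b, Hist1h2ag, Hist2h2aa1, Hist2h2bb, Hist2h3c1, Hist1h1t, Hist1h2aa, Hist1h2ba, Hist1h1d, Hist1h1e, Hist1h2ac, Hist1h2bb, Slbp, Casp8ap2, Lsm11, Cenpa and Tdgf1 were added after their values were seen. Members and lists were chosen with earlier results of these data known.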

Additional observations from a re-analysis of the deposited data

Results flagged for a closer look

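Of the 48 histone probes compared for RA in both populations, 2 had values of opposite sign in them, and none of these was past 2-fold. For Hist1h1b the RA difference was 0.09 in scramble cells and at least -0.28 in size in knockdown cells, a gap of at least -0.37 in size. For Hist1h2ag it was 0.12 and -0.34, a gap of -0.454. With 1 array a group neither gap was tested.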

How the results depend on the processing

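Each result was recomputed under 8 to 10 other settings. No value past 2-fold or the fit's threshold changed sign, but 10 of 44 medians by family and class did, all of them smaller than 2-fold as reported. They include the cluster H1 medians of the knockdown contrasts (before RA as given below; after RA 0.34 to -0.12 at a detection p under 0.05) and the cluster H2A median after RA in knockdown cells (0.08 to -0.24 with median scaling and -0.11 with the deposited ratios). No paired analysis was possible because the groups share fewer than 2 replicate numbers; the additive fit already compares RA within each population through its shRNA term. The 2 histone probes higher in undifferentiated knockdown cells were past 2-fold under every setting. Without background correction the counts in scramble cells after RA went from 2 higher and 13 lower to 1 and 6, the count lower in knockdown cells after RA from 1 to 0, the difference of RA effects from 3 lower to 0, and the count that rose in the RA fit from 1 to 4; the median RA difference in knockdown cells was -0.61 for cluster probes (-1.18 as reported) and -0.64 for cluster H3 (-1.29 as reported). With an offset of 50 the same quantities were 0 lower after RA, 1 for the difference, 3 that rose, and medians of -0.78 and -0.82. With the deposited ratios they were 4 lower in scramble cells, 0 lower after RA, 0 for the difference, 2 that rose, and medians of -0.55 and -0.60, with -0.88 for cluster H4 (-1.51 as reported). The cause was not tested, beyond the fact that an offset or background left in draws log2 differences of dim probes toward 0. With the deposited ratios the median RA difference of all probes in knockdown cells moved from -0.07 to 0.08, and the share of higher among all probes past 2-fold from 51.8% to 69.3%; in scramble cells that share moved from 52.2% to 61.7%. Median scaling gave -0.98 for cluster probes and -1.07 for variant H2A (-0.68 as reported) in knockdown cells after RA. Without bounds 2 probes were lower in knockdown cells after RA. With only probes detected on all 4 arrays, 2 rose in the RA fit, the cluster H1 medians became the value of Hist1h1c alone, 1.21 before RA (-0.29 as reported) and 1.34 after it (0.34 as reported), and the cluster H3 median in scramble cells was -1.07 (-0.91 as reported). With 1 probe per gene the latter was -1.03 and the variant H1 median 1.11 (0.67 as reported). An intensity trend in the prior gave 8 that rose. Without a detection filter 12 rather than 24 fell, with 25697 probes tested rather than 13343. Of the comparisons of single named probes, 47 were no longer past 2-fold or the threshold under a setting, 6 came past it, and 1061 kept their side. Probes near background, such as most of the cluster H1 probes, limit what can be read.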
